A study of Homo sapiens with 5 samples.

Results

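Expression of 10 Hippo pathway genes was examined in SW480 cells with and without knockdown of AKAP12, a scaffold protein that anchors protein kinases A and C. The genes were the kinase genes LATS1 and LATS2, the adaptor and scaffold genes AJUBA, AMOTL2 and NF2, the coactivator genes YAP1 and WWTR1, and the transcription factor genes TEAD1, TEAD3 and TEAD4. They were chosen by symbol as the pathway's kinases, adaptors and effectors, with earlier results of these data known. The share of members called is therefore not free of that choice. All 10 were found among the 26485 genes of the count files and passed the filter on low counts. SW480 is an established human colorectal adenocarcinoma cell line. All cells, controls included, expressed dCas9-KRAB, a nuclease-dead Cas9 joined to a repressor domain, which silences the promoter that a guide RNA leads it to. There were 2 libraries from cells transduced with control guides and 3 from cells transduced with guide RNA against AKAP12, all collected 48 hours after seeding. The number of guides, and whether replicates came from separate cultures, are not in the labels. The tests therefore measure the spread among these libraries, which may be technical. The sample titles name the same groups as shRNA.

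The Hippo pathway is a kinase cascade that restrains growth when cells are crowded or under low mechanical tension. NF2 and other membrane scaffolds activate the upstream kinases STK3 and STK4, these activate LATS1 and LATS2, and the LATS kinases phosphorylate YAP1 and its paralog TAZ, the product of WWTR1, which are then held in the cytoplasm or degraded. Unphosphorylated YAP1 and TAZ enter the nucleus and drive transcription with TEAD factors, and in intestinal epithelium they are known for their part in regeneration and in colorectal tumours. LATS2, AJUBA and AMOTL2 are both regulators of the pathway and textbook targets of YAP1 and TAZ. The phosphorylation and location of these proteins are not seen by RNA sequencing.

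Reads were counted per gene from 3' end libraries, with 4935096 to 9311026 counts per library and 8 to 1705 counts for a member in a library. AKAP12 itself was at 2870 and 1550 CPM (the gene's count relative to the library's total, scaled between libraries with TMM factors) in control 1 and control 2, and at 1159, 1063 and 1008 CPM in knockdown 1 to 3. It was below both controls in every knockdown library, at -1.04 on the log2 scale (SE 0.31), and edgeR's adjusted p of 0.0513 missed the threshold of 0.05. Without control 1 its log2 fold change was -0.52, and without control 2 it was -1.42. The 2 control libraries differed from each other: the correlation of log2 CPM across genes (Pearson's r, a description, since genes are not replicates) was 0.90 between them and 0.98 for each knockdown pair. Control 1 was the library apart, at 0.79 to 0.81 with the knockdown libraries, while control 2 was closer to each of these (0.92 to 0.93) than to control 1. Genes with under 300 exon bases took 8.78% and 1.94% of control counts against 0.609% to 0.925% in the knockdown. TERT alone took 7.43% and 3.54% of control counts against 0.0451% to 0.249% in the knockdown. Of 9 colon epithelium markers 8 were read in every library, with a summed level of 1030 and 1539 CPM in the controls and 1353 to 1608 CPM in the knockdown. KRT18 and KRT19 were the highest in every library. KRT8 (69.1 and 54.9 against 143, 227 and 268 CPM) and CDX2 (18.6 and 25.8 against 27.1, 36.7 and 35.2 CPM) lay above both controls in every knockdown library. So did 31.6% of all tested genes, and no test is given for these markers. For CDX2 the nearest control and knockdown levels were closer together than the controls were to each other. EPCAM overlapped (169 and 83.4 against 89.9, 82.1 and 107 CPM). CDH1 (1.23 to 7.59 CPM), VIL1 (0.717 to 3.43 CPM) and LGALS4 (0.115 to 0.938 CPM) were low in all libraries. KRT20 had 0 reads in each library but knockdown 3, which had 4. Markers of other cell types were present too, although the label names a cell line. All 6 fibroblast markers, led by COL1A1, had reads in every library, with a summed level of 328 and 423 CPM in the controls and 412 to 486 CPM in the knockdown. All 6 blood markers, among them PTPRC and HBB, summed to 55.6 and 102 CPM against 82.0 to 101 CPM. Of 4 endothelial markers 3 were read in every library (CDH5 had 0 reads in control 1), and the list summed to 47.8 and 71.1 CPM against 45.4 to 57.3 CPM. The part of such RNA in the results below was not tested.

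AJUBA, LATS2 and WWTR1 rose in the knockdown by edgeR, and no member was called lower by that test. YAP1, which lay below both controls in every knockdown library, was called lower by DESeq2 and in the authors' deposited table, as described with its values. That table is of the same comparison and the submitters' notes name DESeq2, so these calls are not separate results. DESeq2 called more genes than edgeR over the whole table, 4451 against 3282 of 14536. The 3 edgeR calls are 30% of the 10 members, beside 22.6% of all 14536 tested genes called in either direction. Of the tested genes 11.2% were called higher and 11.4% lower. With 10 members, 3 calls are not far from that background. In bulk RNA, fewer cells of a type and less RNA per cell cannot be told apart. The median log2 fold change was 0.48 over the members and 0.04 over all tested genes, and the median absolute log2 fold change was 0.69 against 0.65. Of the other 7 members, LATS1, TEAD1, YAP1, TEAD4 and NF2 had knockdown levels that did not overlap the control levels but missed the threshold, and TEAD3 and AMOTL2 overlapped. The 5 members higher and 3 lower without overlap stand beside a background of 31.6% and 28.5% of tested genes, 60.1% in all. The control libraries differed by more than the fitted group difference for 4 members, LATS1, YAP1, TEAD3 and AMOTL2, and by less for the other 6. The gap between the controls was 0.14 to 1.36 on the log2 scale, while the knockdown libraries spanned 0.12 to 0.43.

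**Figure D1:**
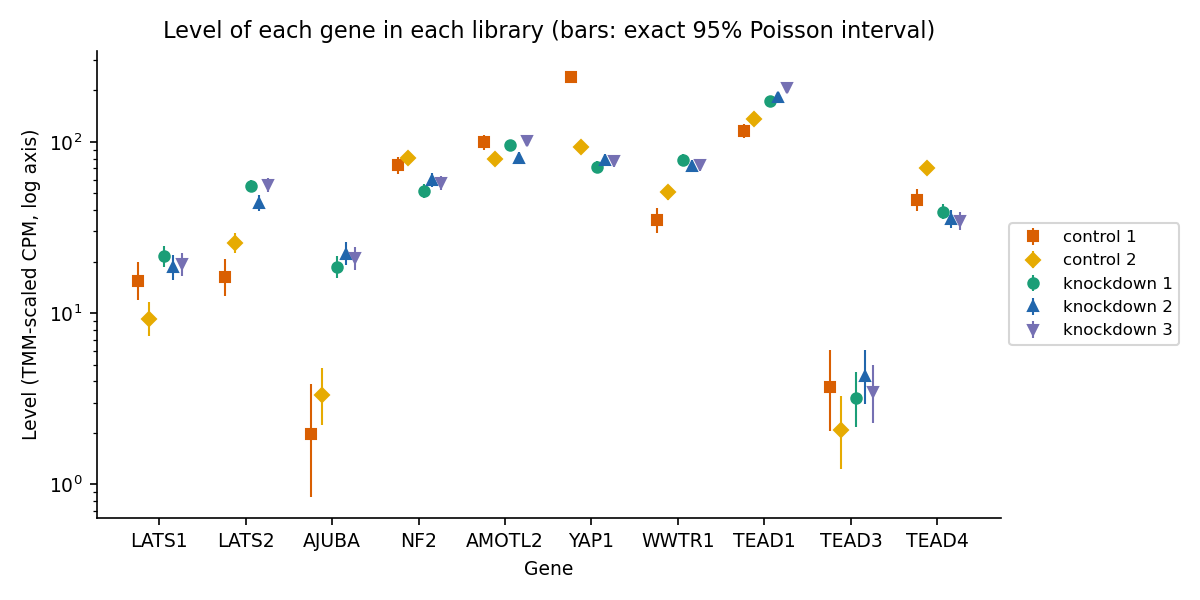
Level of each of the 10 genes in TMM-scaled CPM on a log axis, with 1 symbol per library (2 control and 3 knockdown) and bars for the exact 95% Poisson interval of the count. AJUBA stands out, with knockdown libraries at 18.5 to 22.2 CPM against 1.96 and 3.33 CPM in the controls, and YAP1 is far higher in control 1 than in any other library.

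LATS2 rose and LATS1 was not called. LATS2 (chromosome 13, 20973036 to 21061583 in hg38, minus strand) encodes one of the 2 kinases that phosphorylate YAP1 and TAZ. Its level was 16.2 and 25.8 CPM in the controls and 55.4, 44.1 and 56.2 CPM in the knockdown. All knockdown libraries lay above both controls, by 0.77 on the log2 scale at the nearest pair. The fitted level was 2.45-fold higher (log2 fold change 1.29, SE 0.28, adjusted p = 0.0252 in edgeR), and the log2 fold change was 1.01 without control 1 and 1.68 without control 2. With any 1 knockdown library left out, the call was lost, at edgeR adjusted p values of 0.107 to 0.136, as were all calls in the table (3774 to 4109 genes then had an unadjusted p under 0.05). LATS1 (chromosome 6, 149658153 to 149718256, minus strand), the paralog, was at 15.4 and 9.29 CPM in the controls and 21.5, 18.5 and 19.3 CPM in the knockdown. These groups did not overlap, and the log2 fold change was 0.70 (SE 0.29, adjusted p = 0.120 in edgeR), or 1.09 without control 1 and 0.35 without control 2. Scaling by library size only gave 0.93 with an adjusted p of 0.0499. Fits with 1 control left take their spread from the knockdown libraries, so no p is given for them. LATS1 lies 1522 kb from AKAP12 on the same chromosome.

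LATS2 took 51.2% and 73.5% of the reads of the LATS pair in the controls (95% Wilson intervals 42.6% to 59.6% and 68.3% to 78.2%) and 72.0%, 70.4% and 74.4% in the knockdown. A share within a library does not depend on the scaling between libraries. Since each read marks the 3' part of a transcript, reads were not divided by gene length, and shares are compared between libraries and not between genes. Control 2 lay within the range of the knockdown libraries and only control 1 stood below it, and the difference was 9.96 percentage points with all libraries and -1.22 without control 1 (two-sided exact permutation p = 0.3, adjusted p = 0.42 over 7 family shares; the smallest p with 2 libraries against 3 is 0.1). The summed level of both LATS genes was 31.6 and 35.1 CPM in the controls and 76.9, 62.5 and 75.5 CPM in the knockdown, so for the pair the groups did not overlap.

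The start regions of LATS2, YAP1, AJUBA and AMOTL2 are shown because LATS2, AJUBA and AMOTL2 are textbook targets of the factor pair that YAP1 serves, and they were searched for the TEAD core motif. Windows of 250 bases before each annotated start (RefSeq, GRCh38.p14) were searched for GGAATG, the core of the element that TEAD factors bind, and for CATTCC, the same letters on the other strand. Of all 35116 windows 11.9% held a match. Entries were found for 8 members (not TEAD1 and TEAD4), with 13 windows, of which 3 held a match, 1 each for YAP1, AJUBA and AMOTL2. The 3 sequences with a match are printed with the motif in capitals and the LATS2 window, which held none, is in lower case throughout. A match is a description of the letters and not evidence of binding, and 3' end reads do not show which start was used.
LATS2 (chr13:21061587-21061836, minus strand): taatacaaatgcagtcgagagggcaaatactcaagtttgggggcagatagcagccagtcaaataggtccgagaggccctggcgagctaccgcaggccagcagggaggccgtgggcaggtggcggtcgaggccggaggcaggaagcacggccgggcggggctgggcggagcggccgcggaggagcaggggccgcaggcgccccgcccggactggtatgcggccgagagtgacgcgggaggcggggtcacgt
YAP1 (chr11:102110197-102110446, plus strand): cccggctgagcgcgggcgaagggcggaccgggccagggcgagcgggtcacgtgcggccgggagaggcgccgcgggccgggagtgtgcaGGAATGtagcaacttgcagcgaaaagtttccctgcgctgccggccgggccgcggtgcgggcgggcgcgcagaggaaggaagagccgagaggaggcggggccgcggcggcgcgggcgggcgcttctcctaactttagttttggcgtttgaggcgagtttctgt
AJUBA (inner start, chr14:22976884-22976913, minus strand): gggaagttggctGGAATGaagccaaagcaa
AMOTL2 (inner start, chr3:134374499-134374528, minus strand): ctgaaactctcaCATTCCtggcatagcagc
In YAP1 the motif began 162 bases before the start, in AJUBA 59 and in AMOTL2 69. For AJUBA and AMOTL2 only 30 bases are given, since both sites lie in an untranslated part of an exon of the gene itself in GENCODE release 29. The windows of their outermost starts held no match. The YAP1 window overlaps an exon of the noncoding RNA gene AP001527.2 on the other strand.

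AJUBA had the largest change of the 10 genes. AJUBA (chromosome 14, 22971174 to 22982642, minus strand) encodes a LIM domain adaptor that binds the LATS kinases at cell junctions and restrains them. Its counts were 8 and 29 in the control libraries against 181, 166 and 170 in the knockdown. In scaled units this was 1.96 CPM (exact 95% Poisson interval 0.846 to 3.86) and 3.33 CPM (2.23 to 4.78) against 18.5, 22.2 and 20.9 CPM. The lowest knockdown library was 2.48 on the log2 scale above the higher control, well beyond the spread within either group. The fitted level was 7.41-fold higher (log2 fold change 2.89, SE 0.33, adjusted p = 0.0131 in edgeR), and 98.3% of tested genes had a smaller absolute log2 fold change. The ratio of pooled counts was 7.05 with an exact 95% interval of 5.05 to 10.1 for counting error only, 6.13 (4.22 to 9.24) without control 1 and 10.4 (5.24 to 24.2) without control 2. Without any 1 knockdown library its edgeR adjusted p was 0.0842 to 0.125.

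The other genes of the same LIM protein family did not move together. WTIP (chromosome 19, 34481975 to 34501180, plus strand), from the list of other Hippo genes, rose, with 0 and 4 control reads against 109, 105 and 95 in the knockdown. The ratio of its pooled counts was 39.0 (exact 95% counting interval 15.1 to 144, adjusted p = 0.0131 in edgeR), or 26.6 (10.3 to 98.1) without control 1, and without control 2, with 0 reads in control 1, the interval's lower limit was 13.4. LIMD1 (chromosome 3, 45594831 to 45681263, plus strand) fell, from 46.3 and 15.1 CPM to 9.52, 9.51 and 8.97 CPM (log2 fold change -1.70, SE 0.45, adjusted p = 0.0389 in edgeR). Its exons overlap LIMD1-AS1 on the other strand, and the counting used no strand option, so reads of the pair cannot be told apart. The fall rested largely on control 1, since the log2 fold change was -0.69 without it and -2.31 without control 2, and the call was lost by limma-voom (adjusted p = 0.0734) and by library size only (adjusted p = 0.0539 in edgeR). Summed over AJUBA, LIMD1 and WTIP, the family was at 48.3 and 18.9 CPM in the controls and 39.2, 45.8 and 41.6 CPM in the knockdown, within the range of the controls.

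NF2 and AMOTL2, the other adaptors, were not called. NF2 (chromosome 22, 29603556 to 29698600, plus strand) encodes merlin, a membrane-linked scaffold that activates the LATS kinases and a tumour suppressor. It was at 73.2 and 81.0 CPM in the controls and 51.7, 59.9 and 57.5 CPM in the knockdown, and its controls were the closest of any member. The groups did not overlap, with a log2 fold change of -0.45 (SE 0.19, adjusted p = 0.119 in edgeR), -0.52 without control 1 and -0.38 without control 2. AMOTL2 (chromosome 3, 134355345 to 134375417, minus strand) encodes an angiomotin family protein that binds YAP1 and holds it at junctions and actin. It was at 99.5 and 79.4 CPM in the controls and 96.1, 80.4 and 101 CPM in the knockdown, so the groups overlapped. Its log2 fold change was 0.05 (SE 0.21, adjusted p = 0.877 in edgeR), and the sign changed when control 2 was left out (-0.11). AMOT and AMOTL1, its paralogs, had log2 fold changes of -0.78 and -0.85 (adjusted p = 0.138 and 0.0723 in edgeR). The AMOTL2 share of the reads of the 3 angiomotin genes was 82.4% and 77.1% in the controls and 87.8% ± 2.53 (SD, n = 3) in the knockdown, without overlap (exact permutation p = 0.1, adjusted p = 0.175). Taken as a log2 ratio to the rest of the family, the exact permutation p was 0.2. This share was not corrected for transcript GC content, which is 56.7% for AMOTL2, 46.4% for AMOT and 48.8% for AMOTL1.

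The coactivator genes went in opposite directions, and only WWTR1 passed the test. WWTR1 (chromosome 3, 149517235 to 149703273, minus strand), which encodes TAZ, was at 35.0 and 50.7 CPM in the controls and 78.7, 72.5 and 73.8 CPM in the knockdown. It rose 1.74-fold (log2 fold change 0.80, SE 0.23, adjusted p = 0.0473 in edgeR), with 0.57 without control 1 and 1.09 without control 2. The call was close to the threshold: it was lost by library size only (adjusted p = 0.0544 in edgeR), without a filter (0.0528) and with GC-dependent offsets (log2 fold change 0.57, adjusted p = 0.103 in edgeR), and at 0.149 to 0.169 without any 1 knockdown library. YAP1 (chromosome 11, 102110461 to 102233423, plus strand), the founding coactivator of the pathway, was at 241 and 93.6 CPM in the controls and 71.7, 78.6 and 77.6 CPM in the knockdown. All knockdown libraries were below both controls, but control 1 was 1.36 higher than control 2 on the log2 scale, which is more than the fitted difference of -1.13 (SE 0.37, adjusted p = 0.0669 in edgeR). Without control 1 the log2 fold change of YAP1 was -0.30, and without control 2 it was -1.67. YAP1 passed the threshold by DESeq2 (adjusted p = 0.0286), without a filter (adjusted p = 0.0400 in edgeR) and with GC-dependent offsets (adjusted p = 0.0491 in edgeR). It missed it by limma-voom (adjusted p = 0.103), with RLE scaling (adjusted p = 0.0636 in edgeR) and by library size only (adjusted p = 0.103 in edgeR).

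The balance of the coactivator reads was lower for YAP1 in every knockdown library. YAP1 took 87.3% and 64.9% of the reads of YAP1 and WWTR1 in the control libraries and 47.7%, 52.0% and 51.3% in the knockdown. The Wilson interval of control 2, the nearer control, was 62.2% to 67.5%, and that of knockdown 2, the highest of its group, was 49.1% to 54.9%. The groups did not overlap, and the difference of -25.8 percentage points had the smallest p the design allows (two-sided exact permutation p = 0.1, adjusted p = 0.175 over 7 shares). It was -14.5 points without control 1 and -37.0 without control 2. The summed level of both genes was 276 and 144 CPM in the controls and 150, 151 and 151 CPM in the knockdown, so for the sum control 2 lay just below the knockdown libraries and control 1 far above them.

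**Figure D2:**
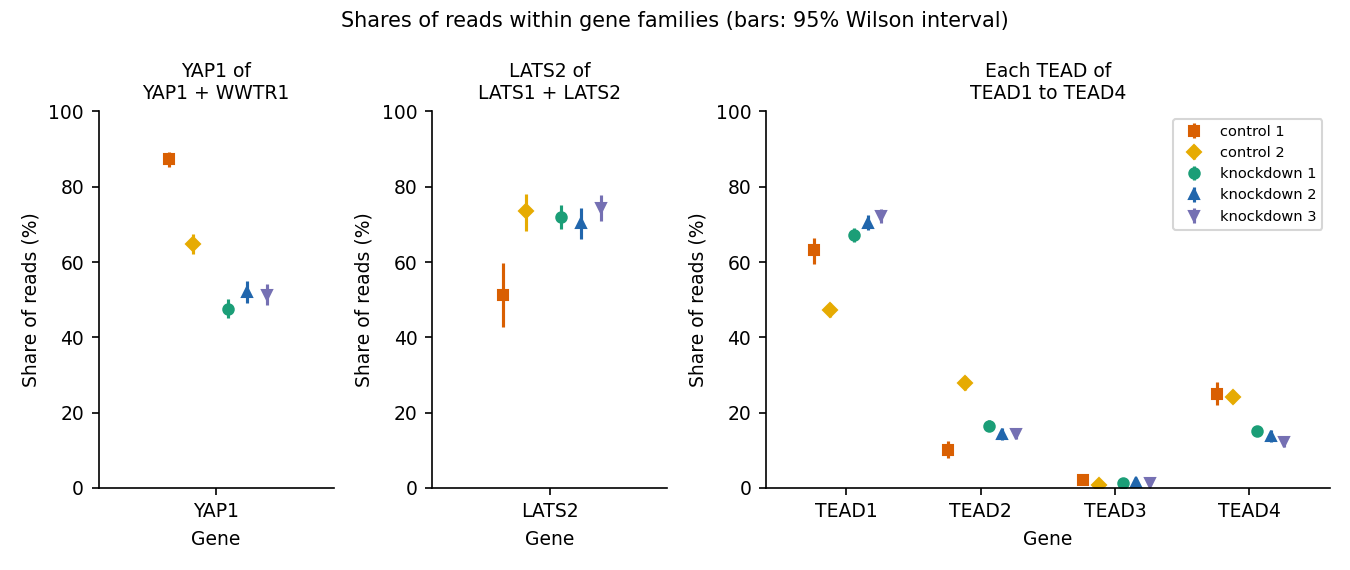
Share of reads, in percent, of YAP1 within YAP1 and WWTR1, of LATS2 within LATS1 and LATS2, and of each TEAD gene within TEAD1 to TEAD4, with 1 symbol per library and bars for the 95% Wilson interval. The YAP1 share is 47.7% to 52.0% in the knockdown against 64.9% and 87.3% in the controls, the LATS2 share of control 2 lies among the knockdown libraries, and the TEAD4 share is near 24% to 25% in both controls and 12.2% to 15.1% in the knockdown.

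No TEAD gene passed the threshold. The TEAD genes encode the DNA-binding partners of YAP1 and TAZ. TEAD1 (chromosome 11, 12674422 to 12944737, plus strand) was at 116 and 137 CPM in the controls and 175, 183 and 206 CPM in the knockdown, without overlap. Its log2 fold change was 0.57 (SE 0.20, adjusted p = 0.0787 in edgeR), 0.46 without control 1 and 0.69 without control 2. TEAD4 (chromosome 12, 2959312 to 3040676, plus strand) was at 45.8 and 70.3 CPM against 39.1, 35.5 and 34.7 CPM. Its log2 fold change was -0.68 (SE 0.24, adjusted p = 0.0819 in edgeR), -0.95 without control 1 and -0.33 without control 2. TEAD3 (chromosome 6, 35473597 to 35497084, minus strand) had 15 and 18 control counts and 31, 32 and 28 knockdown counts. Its level of 3.67 and 2.06 CPM against 3.17, 4.29 and 3.44 CPM overlapped, and no difference was detectable at this depth (log2 fold change 0.39, SE 0.44, adjusted p = 0.545 in edgeR). Its sign changed without control 2 (-0.027).

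Within the TEAD family the TEAD4 share of reads was the one on which the controls were closest. TEAD4 took 24.9% and 24.3% of TEAD1 to TEAD4 reads in the control libraries and 15.1%, 13.7% and 12.2% in the knockdown, a difference of -11.0 percentage points without overlap (two-sided exact permutation p = 0.1, adjusted p = 0.175). TEAD1 took 63.1% and 47.2% against 67.2%, 70.5% and 72.2%, also without overlap and with the same p, a difference of 14.8 points that was 22.8 without control 1 and 6.91 without control 2. The TEAD2 share was 10.0% and 27.8% in the controls, on either side of the 14.2% to 16.5% of the knockdown libraries (exact permutation p = 0.7). TEAD3 held 2.00% and 0.712% of the family's reads in the controls and 1.21% to 1.65% in the knockdown. The 4 shares add up to the whole, so the TEAD1 rise and the TEAD4 fall are not separate results. Shares were not corrected for the GC content of the transcripts, which is 41.3% for TEAD1 and 60.4% for TEAD4. The summed level of the 4 genes was 184 and 290 CPM in the controls and 260, 260 and 285 CPM in the knockdown, within the range of the controls.

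**Figure D3:**
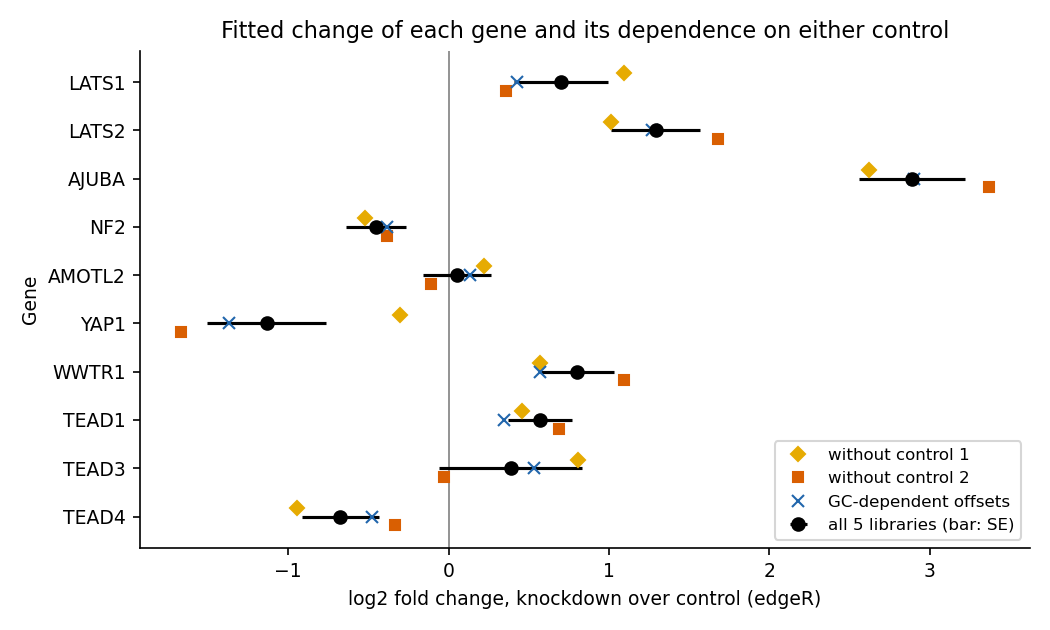
Fitted log2 fold change of the 10 genes, knockdown over control, with its SE (black), and the value without control 1, without control 2 and with GC-dependent offsets. AJUBA stays between 2.62 and 3.37 in these fits and LATS2 between 1.01 and 1.68, whereas YAP1 ranges from -1.67 to -0.30.

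The members fall into 2 sets by base composition, which the choice of genes did not use. The longest GENCODE release 29 transcript had a GC content of 39.7% for LATS1, 40.9% for WWTR1, 41.3% for TEAD1 and 43.5% for YAP1, below the median of 48.4% over tested genes with a value, and of 51.8% to 60.4% for the other 6. With offsets that remove the dependence of each library on GC content, the log2 fold changes of the first set became 0.43 for LATS1, 0.57 for WWTR1, 0.34 for TEAD1 and -1.37 for YAP1. In the other set TEAD4 moved from -0.68 to -0.48, TEAD3 from 0.39 to 0.53, AMOTL2 from 0.05 to 0.13 and NF2 from -0.45 to -0.38, while AJUBA (2.90) and LATS2 (1.27) moved least. Scaling by library size only raised the median log2 fold change of all genes by 0.20, and the split of all calls became 1668 higher and 982 lower, against 1624 and 1658. No member changed sign under any scaling (TMM, RLE or library size only).

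A table of the same comparison, the authors' deposited table, gave AJUBA, LATS2 and WWTR1 as higher and YAP1 as lower at an adjusted p under 0.05, with 25.3% of 16104 genes past that threshold. The table does not state its direction, which was read from the correlation of its fold changes with the fitted ones (r = 0.999 across 14536 genes, which are not independent). In the authors' deposited table the log2 fold change was 2.89 for AJUBA (adjusted p = 4.04e-09), 1.28 for LATS2 (0.00142), 0.79 for WWTR1 (0.0284) and -1.17 for YAP1 (0.0306).

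Other genes of the pathway were called at the rate of all genes. Of 33 such genes 32 were tested (DCHS1 was not), 2 rose and 5 fell, which is 21.9% against 22.6% of all tested genes, and their median log2 fold change was -0.23. The gene for the LATS cofactor MOB1A rose besides WTIP, from 12.7 and 14.7 CPM to 35.2, 37.8 and 53.0 CPM (log2 fold change 1.61, SE 0.27, adjusted p = 0.0181 in edgeR). The groups overlapped for its paralog MOB1B (log2 fold change -0.06, adjusted p = 0.921 in edgeR). CSNK1E encodes a casein kinase of the family that marks YAP1 for degradation. It fell from 270 and 187 CPM to 95.2, 91.1 and 90.1 CPM (log2 fold change -1.31, adjusted p = 0.0175 in edgeR). Its reads are shared with the read-through gene LOC400927-CSNK1E. The paralog CSNK1D went the other way without a call, from 24.5 and 79.7 CPM to 88.9, 96.2 and 99.8 CPM (log2 fold change 0.85, adjusted p = 0.201 in edgeR). MAP4K4, a kinase that activates LATS in parallel to STK3 and STK4, fell from 389 and 238 CPM to 154, 157 and 136 CPM (log2 fold change -1.07, adjusted p = 0.0301 in edgeR, -0.68 without control 1). The other falls were in LIMD1, in VGLL4, which competes with YAP1 for TEAD (log2 fold change -1.32, -0.63 without control 1, exons overlapping ATG7), and in the phosphatase gene PTPN14 (-0.80, -0.52 without control 1). By library size only VGLL4 (adjusted p = 0.0515 in edgeR) and PTPN14 (0.0812) missed the threshold, and PTPN14 also missed it without a filter (0.0552). The core kinase genes STK3 and STK4 and the gene of their scaffold SAV1 had log2 fold changes of -0.10, -0.39 and -0.60 (adjusted p = 0.763 in edgeR, 0.159 and 0.119).

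YAP and TEAD target genes moved in both directions, and most were not called. Of 20 genes 2 rose and 1 fell, which is 15% against 22.6% of all tested genes, and the median log2 fold change was 0.34. BIRC5, the gene of the apoptosis inhibitor survivin, which also rises with proliferation, was at 82.6 and 149 CPM in the controls and 284, 279 and 309 CPM in the knockdown (log2 fold change 1.32, SE 0.29, adjusted p = 0.0263 in edgeR, 0.96 without control 1). FOXF2, a transcription factor gene, had 0 and 1 control reads against 48, 42 and 55 (adjusted p = 0.0131 in edgeR). FJX1 fell from 175 and 57.0 CPM to 35.9, 38.0 and 40.3 CPM (log2 fold change -1.60, adjusted p = 0.0400 in edgeR), a value that was -0.58 without control 1 and whose call was lost by limma-voom (adjusted p = 0.0674), by library size only (adjusted p = 0.0561 in edgeR) and with GC-dependent offsets (adjusted p = 0.0796 in edgeR). The most used readouts of the pathway were not called with all libraries, and the size of each change depended on which control was left out. CYR61 was at 23.5 and 18.6 CPM against 30.2, 32.1 and 29.9 CPM (log2 fold change 0.55, adjusted p = 0.109 in edgeR). It passed the threshold by library size only (0.77, adjusted p = 0.0467 in edgeR), and was at 0.73 without control 1 and 0.38 without control 2. CTGF was at 16.7 and 41.1 CPM against 52.8, 57.6 and 54.8 CPM (0.91, adjusted p = 0.112 in edgeR, 0.42 without control 1 and 1.72 without control 2). ANKRD1 was at 673 and 412 CPM against 580, 564 and 571 CPM, between the controls (0.08, adjusted p = 0.846 in edgeR). Its log2 fold change was 0.47 without control 1, and it changed sign without control 2 (-0.24) and with GC-dependent offsets (-0.15).

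**Figure D4:**
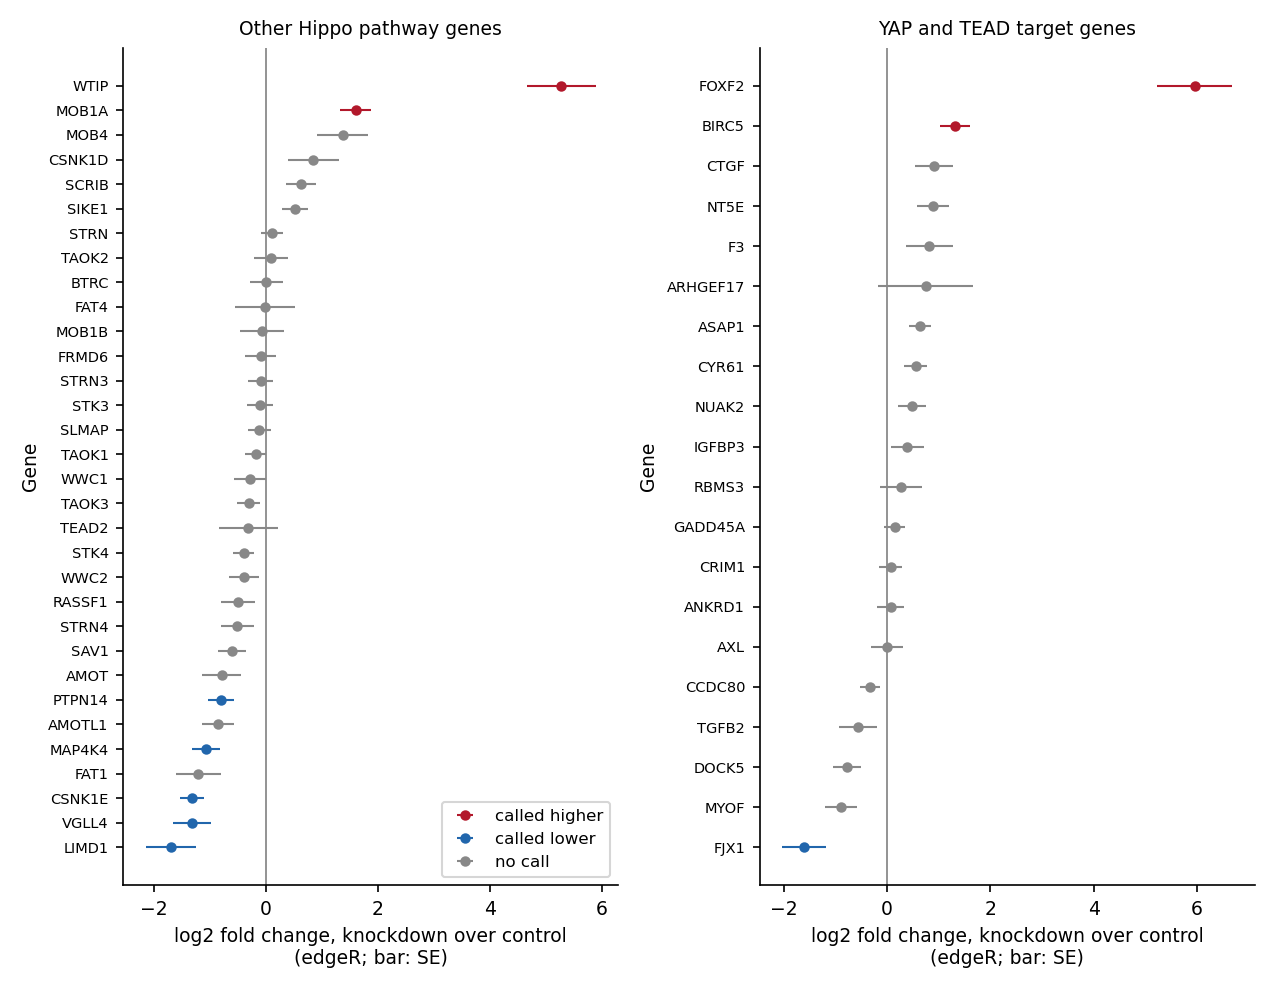
Fitted log2 fold change with its SE (bars), knockdown over control, of 32 other Hippo pathway genes (left) and 20 YAP and TEAD target genes (right), coloured by whether the edgeR call was higher, lower or absent. Most genes are grey, and WTIP and FOXF2, which had at most 4 control reads, lie far to the right, where the fitted value depends on the prior count.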

How the data were processed

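The 5 libraries were made with the QuantSeq forward kit, which reads transcript 3' ends (per the labels' protocols). They come from SW480 cells, 2 control and 3 with AKAP12 knockdown. The deposited values are whole-number read counts per gene. The authors ran featureCounts 1.6.2 on exons, per the file headers, assigning a read to every gene it overlaps and with no strand option. The submitters' processing notes name STAR 2.7, DESeq2 1.22 and the build hg38. Whether reads were trimmed or carried molecular identifiers is not stated, so every interval is for counting error alone. Besides p-values, the authors' deposited table holds log2 fold changes, their standard errors, a score (the test statistic) and a mean signal.

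Genes were filtered with filterByExpr (minimum count 10) and compared with edgeR 4.0.16 (R 4.3.3): TMM scaling, the two-sided quasi-likelihood test and Benjamini-Hochberg adjustment over all tested genes, with a threshold of 0.05. SE is the absolute log2 fold change over the square root of F. No member's exons overlap another gene in the count files. Alternatives were DESeq2 1.42.0, limma-voom (limma 3.58.1), RLE scaling, library size only, no filter, the replicate number as a block, a stricter filter (2 or more libraries at 5 CPM), removal of TERT and genes under 300 bases, and each library left out. GC-dependent offsets (a smooth of span 0.2) were chosen after seeing the data. Fits with 1 control left assume that it varies like the knockdown libraries. Family shares were compared with an exact permutation test over libraries (scipy 1.17.1 gave their Wilson intervals). The procedure was also run on simulated counts that gave both groups the same spread. That run therefore cannot show how the tests behave when the controls differ more than the knockdown libraries, as here.

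The members and gene lists were chosen with earlier results of these data known. Named genes were the members, AKAP12, all genes of each family, and up to 4 called genes with the smallest p in each of the 2 other lists. LIMD1, VGLL4, PTPN14, STK3, STK4, SAV1, MOB1B, CSNK1D, CYR61, CTGF and ANKRD1 were singled out after their values were seen.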

Additional observations from a re-analysis of the deposited data

How the results depend on the processing

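Each member kept its direction under DESeq2, limma-voom, both scalings, both filters, removal of TERT and short genes, and GC-dependent offsets (TEAD3 was not tested under the stricter filter). The calls of AJUBA and LATS2 held in all of these, and that of WWTR1 did not. Members called lower numbered 1 (YAP1) by DESeq2, without a filter and with GC-dependent offsets, against 0 in the reported fit. Over the whole table these fits called 2274, 1713 and 1575 genes lower, against 1658 in the reported fit. In the reported fit 8 members had an unadjusted edgeR p under 0.05, beside 5890 of all 14536 tested genes. AKAP12 passed the threshold by DESeq2 (-1.09), limma-voom (-0.98), without a filter (-0.996), with the stricter filter (-1.06), without TERT and short genes (-1.04) and with GC-dependent offsets (-1.16). It missed it in edgeR with RLE scaling (adjusted p = 0.0505), by library size only (0.0716) and with the replicate number as a block (0.298). Without any 1 knockdown library its edgeR adjusted p was 0.161 to 0.201. By library size only, other Hippo genes had 2 members lower and target genes had 4 higher and 0 lower. Target genes had 2 lower by DESeq2 and 0 lower by limma-voom and with GC-dependent offsets. ANKRD1 changed sign with GC-dependent offsets (-0.15).

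With the replicate number as a block, 210 genes were called in all and 1 member rose (AJUBA, adjusted p = 0.0419 in edgeR), 1 other Hippo gene rose and 0 fell, 1 target gene rose and 0 fell, and AMOTL2 was at -0.015. The numbers share no stated source, and the deviations of same-numbered libraries from their group mean correlated at -0.05 and -0.08. With 2 controls, the deviations of control 2 are those of control 1 with the sign reversed. The values are therefore not separate checks, and differently numbered libraries mirror them at 0.08 and 0.05.

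Leaving out 1 library gave 0 to 8811 called genes, 0 to 5 members higher and 0 to 2 lower, 0 to 6 other Hippo genes higher and 0 to 11 lower, 0 to 7 target genes higher and 0 to 4 lower, and AKAP12 between -1.42 and -0.52. Each count was 0 without any 1 knockdown library, and the high counts came without a control, where the spread is that of the knockdown libraries. In these fits TEAD3 ranged from -0.027 to 0.81, AMOTL2 from -0.11 to 0.22 and ANKRD1 from -0.24 to 0.47. The difference in share ranged from -1.22 to 21.1 percentage points for LATS2, from -12.8 to 5.03 for TEAD2 and from -0.64 to 0.648 for TEAD3. The cause of these shifts was not tested. Among the members depth limits AJUBA and TEAD3 most, whose lowest counts were 8 and 15, and among the other named genes WTIP and FOXF2, with at most 4 control reads.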
